A study of Mus musculus with 48 samples.

Results

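The S and G2/M cell cycle genes are a module of 51 genes whose transcripts accumulate while a cell copies its DNA and then divides. They comprise 26 S genes and 25 G2/M genes, taken by symbol from a list, and all 51 were found in both count tables, of 20300 and 14363 genes. Their unique molecular identifiers (UMIs, each standing for 1 captured mRNA molecule) were summed per cell and per library in cell classes gated on markers that include no cell cycle gene. In S phase the MCM helicase unwinds the DNA at replication origins, the Pcna clamp holds the polymerase on its template, and thymidylate synthase (Tyms) and ribonucleotide reductase (Rrm1, Rrm2) supply deoxynucleotides. In G2 and mitosis Cdk1 drives entry into division, kinesins, Aurora kinases and kinetochore proteins move the chromosomes, and the anaphase-promoting complex with Cdc20 and Ube2c marks proteins for destruction. In brain tumors the cancer cells, activated T cells and dividing myeloid cells can all carry such transcripts, whereas mature neutrophils have left the cycle.

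GL261 is a mouse glioma line, here carrying either a negative control shRNA (shNC) or an shRNA against Selp, the gene of P-selectin (shSELP), and grown in the brains of C57BL/6 male mice that were 6 weeks old. At day 16 by the labels, CD11b+ cells, the remaining CD45+ cells and the leftover suspension of pooled brains were combined in equal amounts. The leftover suspension held the cancer cells and other components of the brain. This mix gave 2 libraries per genotype. The study's methods name a pool of brains per group, and the labels do not say whether these libraries come from separate pools. The spread between libraries may therefore not be the spread between pools of mice. At day 21 by the labels, CD11b+ cells alone gave 1 library per genotype, and 7 of the entries of its shSELP library carry a description that names the negative control, so its direction rests on the other labels. The study's methods give another day of collection, so the days are uncertain. Because the mix was composed by hand, class proportions do not describe the tumor.

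In the mix, 8726 of 9172 cells passed the filter on genes per cell and mitochondrial share. Values of its 4 libraries are given throughout in the order shNC libraries 1 and 2, then shSELP libraries 1 and 2. The libraries held 22945972, 22626413, 17398121 and 25589350 UMIs, with medians of 9015, 7579, 5887 and 9388 per cell. The CD11b+ libraries held 12628177 UMIs (shNC) and 11445676 UMIs (shSELP), and 189 of their 5724 cells were left out. Identical barcodes numbered 2 between shNC library 2 and shSELP library 2, 3 between the shSELP libraries, 3 between the CD11b+ libraries and 0 between the other pairs of the mix. The shSELP library 1 stood apart, with 351 endothelial-like cells against 22, 33 and 73 in the others and 330 microglia-like cells against 157, 162 and 159.

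The classes were checked against their leading genes. Tumor-like cells (258, 173, 45 and 39) were led by H19, Col9a2 and Prph, and T-like cells (455, 458, 418 and 469) by Cd3g, Cd3d and Trbc2. Among the leading 10 genes of macrophage-like cells (721, 697, 466 and 785) were Chil3, F13a1 and Lyz2. Microglia-like cells were led by Crybb1, P2ry12 and Gpr34, and their leading 10 genes also held 1 marker of another class, Siglech. The 57 neutrophil-like cells (6, 11, 24 and 16) were led by Retnlg, S100a9 and S100a8 and were shallow, with a median of 2147 UMIs against 16567 in tumor-like cells. Cells whose leading class had under 3 markers, or led the next by under 0.1 of its list, stayed ungated. They numbered 379, 357, 307 and 381 and held 14.0% of the UMIs of either list, and 243, 176, 135 and 150 of them had at least 3 markers of a class. Tumor markers led in 58, 49, 37 and 50 ungated cells, whose G2/M sums were 1742, 1159, 1351 and 2029 CPM.

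Selp, the targeted gene, gave 1, 1, 0 and 0 UMIs in tumor-like cells, which is 0.244 and 0.345 CPM (the UMI count scaled to the depth of its class) in the shNC libraries. The counts of 0 allow up to 4.37 and 6.61 CPM in the shSELP libraries, so a knockdown was not detectable at this depth. Endothelial-like cells, whose vessels store P-selectin, held 8, 12, 15 and 7 Selp UMIs, or 57.5, 50.6, 8.83 and 15.0 CPM. Per depth Selp was thus lower there in both shSELP libraries, which was not tested.

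T-like cells carried the most cell cycle UMIs of any class of the mix. They held 34.8% of all S gene UMIs and 37.8% of all G2/M gene UMIs on 16.0% of the UMIs of the mix, and tumor-like cells held 13.9% and 19.7% on 9.21%. Macrophage-like cells stood the other way, with 20.9% and 15.2% on 38.1%, and microglia-like cells held 6.30% and 5.87% on 11.01%. These shares depend on how many cells of each class were put into the mix.

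The S genes summed to 2009.6, 1639, 1306 and 1565 CPM in T-like cells and to 1105, 1132, 1312 and 1265 CPM in tumor-like cells. These 2 classes overlapped each other and lay above macrophage-like cells (509, 458, 393 and 337 CPM) and microglia-like cells (505, 432, 411 and 399.8 CPM) in every library. NK-like cells (706, 1294, 798 and 1060 CPM) reached into the tumor-like range, and dendritic-cell-like cells (954, 601, 511 and 663 CPM) overlapped NK-like cells. Endothelial-like cells, at 417, 515, 437 and 418 CPM, overlapped the macrophage-like and microglia-like range, and neutrophil-like cells gave 233, 555, 138 and 264 CPM from 40 UMIs in all.

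The G2/M sums were 2265, 1973, 1352 and 1854 CPM in T-like cells and 1775, 1504, 1572 and 2650 CPM in tumor-like cells, again overlapping. Microglia-like cells gave 666, 474, 353 and 257 CPM, macrophage-like cells 393, 373, 332 and 235 CPM, and endothelial-like cells 252, 236, 188 and 206 CPM. The last 2 classes overlapped in 1 library only, since shSELP library 2 brought macrophage-like cells into the endothelial-like range. Dendritic-cell-like cells were uneven, at 1602 CPM in shNC library 1 against 376, 332 and 524 CPM in the other 3. NK-like cells gave 524, 1137, 414 and 563 CPM.

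The balance between the lists differed by class. UMIs of G2/M genes per UMI of S genes were 1.499 in tumor-like cells and 1.15 in T-like cells, pooled over libraries, against 0.770 in macrophage-like and 0.731 in NK-like cells. Neutrophil-like cells had the highest pooled ratio of the 7 classes compared, 2.5, and 2.67, 1.81, 3.40 and 2.64 by library, with most of their G2/M UMIs from Cks2. In tumor-like cells the ratio was 1.61, 1.33, 1.20 and 2.09, and in macrophage-like cells 0.772, 0.815, 0.844 and 0.696, so the 2 classes did not overlap. In microglia-like cells the 2 control values, 1.32 and 1.10, lay above the 2 knockdown values, 0.858 and 0.643. These ratios were not tested.

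**Figure D1:**
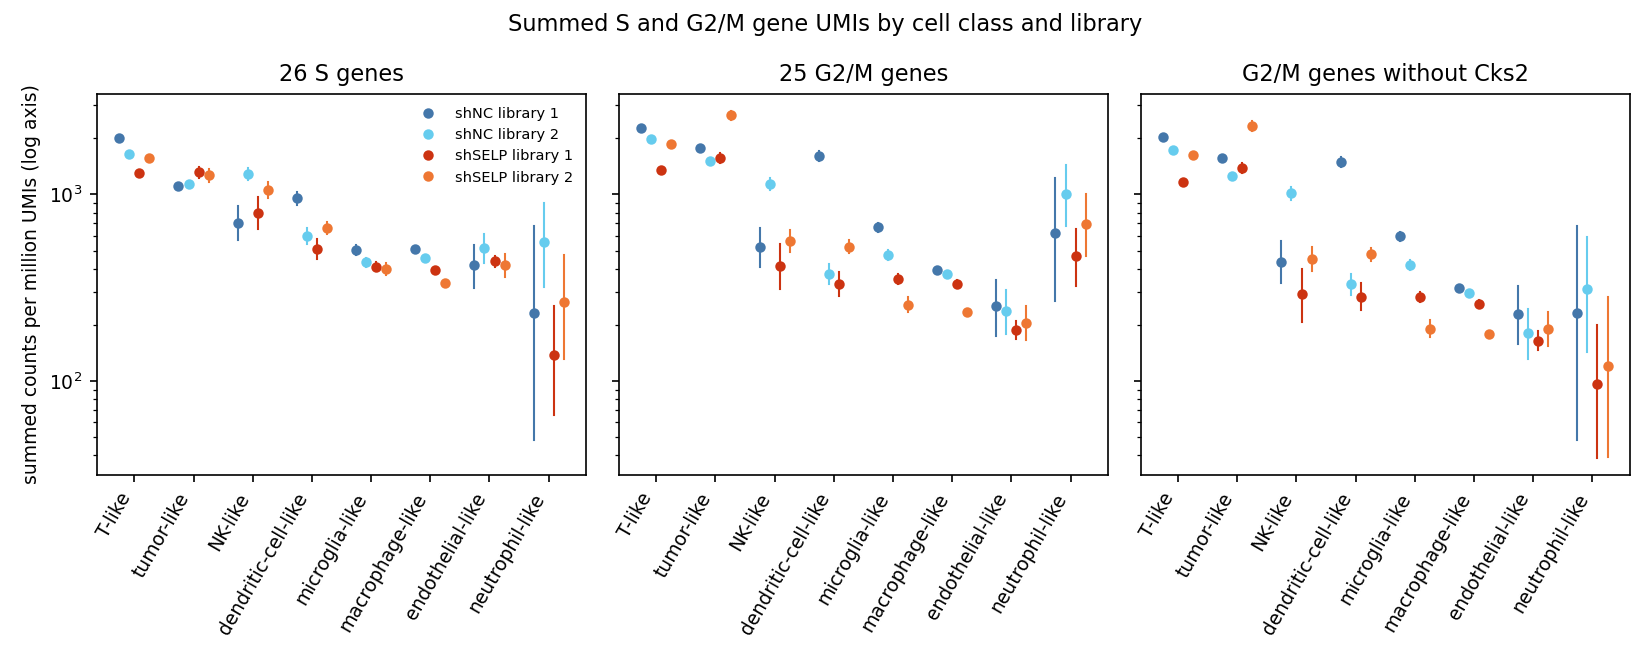
Summed S genes, G2/M genes and G2/M genes without Cks2 in CPM of the class (log axis), 1 point per library with its exact Poisson 95% interval, for 8 cell classes of the mix. By the mean of 4 libraries T-like and tumor-like cells lie highest, with single NK-like and dendritic-cell-like libraries among them, and neutrophil-like cells drop from 468 to 1007 CPM to between 96.3 and 312 CPM once Cks2 is removed.

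Among the S genes, the 6 MCM helicase subunits summed to 551, 461, 348 and 439 CPM in T-like cells and to 324, 312, 354 and 328 CPM in tumor-like cells. In macrophage-like cells they summed to 147, 119, 81.9 and 69.8 CPM. The deoxynucleotide enzymes Tyms, Rrm1 and Rrm2 gave 340.5, 262, 197 and 248 CPM in T-like, 118, 134, 164 and 185 CPM in tumor-like and 45.6, 44.2, 27.6 and 24.2 CPM in macrophage-like cells. For both roles macrophage-like cells lay below T-like and tumor-like cells in every library.

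Slbp, whose protein binds the stem-loop of histone mRNA, and Nasp, a histone chaperone, with Chaf1b, Uhrf1 and Hells, summed to 129, 132, 141 and 103 CPM in macrophage-like and 481, 408, 369 and 382 CPM in T-like cells. Slbp held the most S gene UMIs in each of the 7 classes compared, with 10.3% in T-like, 11.2% in tumor-like and 13.6% in macrophage-like cells. The CD11b+ libraries differed, with Rfc2, a subunit of the clamp loader, first in macrophage-like and Pcna first in microglia-like cells.

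Among the G2/M genes, the pair Ube2c and Cdc20 acts with the anaphase-promoting complex. The pair summed to 309, 246, 249 and 558 CPM in tumor-like cells, 247, 212, 123 and 198 CPM in T-like cells and 33.1, 29.6, 26.4 and 12.95 CPM in macrophage-like cells. Cdc20 itself was 131, 127, 87.3 and 201 CPM in tumor-like cells against 36.4, 32.1, 16.6 and 28.7 CPM in T-like cells. Mki67, which coats mitotic chromosomes, lay the other way, at 67.7, 51.8, 39.3 and 57.3 CPM in tumor-like and 185, 179, 131 and 182 CPM in T-like cells. Neither pair of classes overlapped, but tumor-like and T-like cells were not tested against each other.

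Some members were high in a class whose other members were low. Cks2, a small subunit that binds Cdk1, held 76 of the 100 G2/M UMIs of neutrophil-like cells, at 388, 694, 372 and 577 CPM. Its UMIs lay in 29 of these 57 cells and averaged 487 CPM pooled against 113 CPM in all other cells of the mix. Without it the neutrophil-like G2/M sum was 233, 312, 96.3 and 120 CPM. Anln, an actin-binding protein of the cleavage furrow that is also a component of myelin, held 133 of the 273 G2/M UMIs of oligodendrocyte-like cells, at 261, 119, 239.5 and 142 CPM. In all other cells it was 8.88 CPM, and 35 of 73 oligodendrocyte-like cells had a UMI of it. Kif23, a kinesin of the central spindle, held 172 of the 506 G2/M UMIs of endothelial-like cells, at 64.7, 16.9, 73.0 and 75.0 CPM against 12.6 CPM elsewhere. Cenpa, the centromere histone, held 25.9% of the G2/M UMIs of NK-like cells and was steady there, at 204, 184, 192 and 249.9 CPM, while Mki67 in the same cells was 0, 99.9, 0 and 25.2 CPM.

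**Figure D2:**
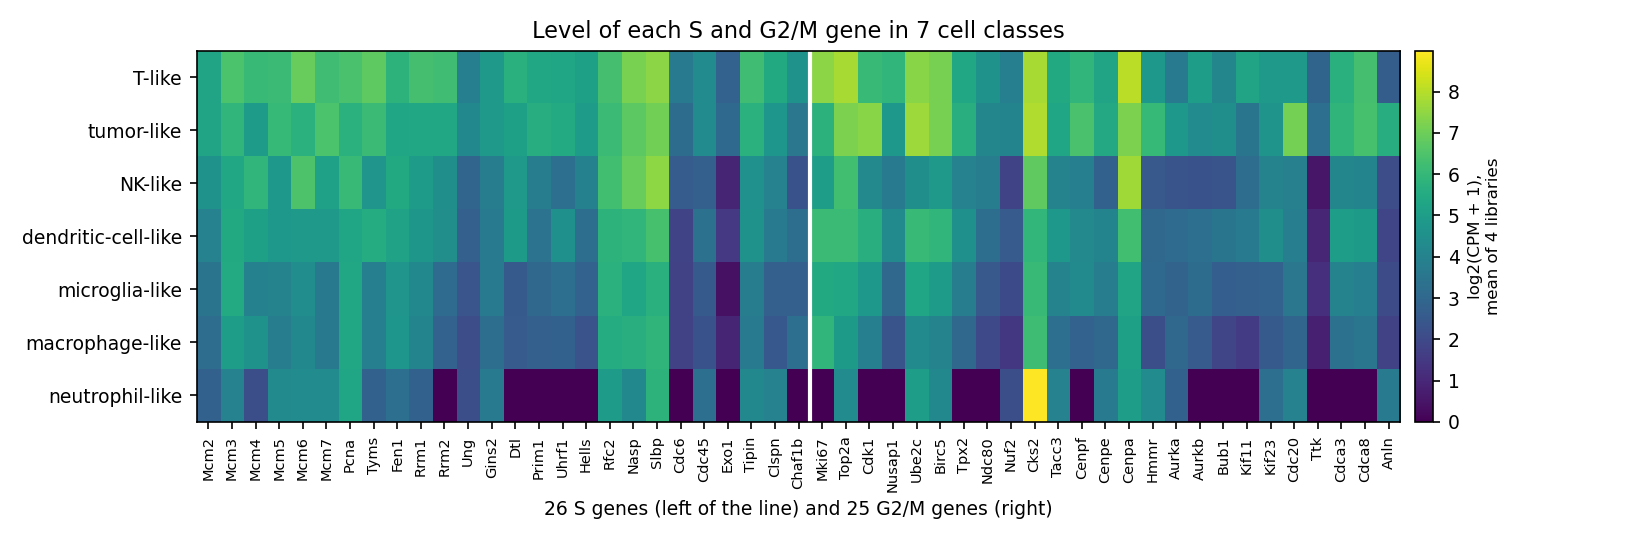
Level of each of the 26 S and 25 G2/M genes in 7 cell classes of the mix, as log2(CPM + 1) of the mean of 4 libraries. The neutrophil-like class is dark for 20 members at 0 UMIs and brightest for Cks2.

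Within classes, cells were compared after each was thinned to 2000 UMIs, since deeper cells show more members. Cells below that depth were left out, 20 of 515 tumor-like, 69 of 1800 T-like, 44 of 2669 macrophage-like, 62 of 808 microglia-like and 23 of 57 neutrophil-like cells. At least 2 G2/M UMIs remained in 44.7%, 41.6%, 28.3% and 36.3% of T-like cells and in 39.9%, 39.3%, 38.6% and 60% of tumor-like cells. Macrophage-like cells gave 12.5%, 11.95%, 12.03% and 8.68%, and microglia-like cells 17.6%, 9.72%, 9.24% and 13.6%. T-like cells of both shSELP libraries lay below those of both shNC libraries, and microglia-like cells showed no such split. The last tumor-like value rests on 30 cells, with an exact 95% interval of 40.6% to 77.3%, and all intervals here cover counting error only. RNA carried between droplets was not estimated, so a cell with UMIs of a gene need not have made them.

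Neutrophil-like cells gave 0%, 33.3%, 23.5% and 46.2% for the G2/M genes, on 1, 3, 17 and 13 cells. Without Cks2 the same cells gave 0%, 0%, 0% and 15.4%, whereas tumor-like cells gave 35.2%, 35.1%, 36.4% and 60%. For the S genes neutrophil-like cells gave 0%, 0%, 5.88% and 7.69%, against 52.2%, 51.6%, 45.7% and 47.3% of T-like, 46.2%, 53.0%, 47.7% and 60% of tumor-like and 19.4%, 19.1%, 21.0% and 14.1% of macrophage-like cells. Before thinning, 86.0%, 86.7%, 77.8% and 84.6% of tumor-like and 57.4%, 61.0%, 51.5% and 70.4% of macrophage-like cells had 2 G2/M UMIs or more, against 50%, 45.5%, 25% and 50% of neutrophil-like cells. Their median depths were 16567, 11145 and 2147 UMIs.

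Cells with at least 2 UMIs of both lists after thinning were 30.8%, 29.8%, 34.1% and 46.7% of tumor-like cells and 28.1%, 25.9%, 15.1% and 20.6% of T-like cells. In macrophage-like cells they were 4.23%, 3.79%, 3.94% and 1.81%, and in microglia-like cells 5.41%, 3.47%, 3.18% and 6.43%. Few cells held much of the G2/M signal in each of these 4 classes. Before thinning, 50% of T-like G2/M UMIs lay in 34 of 455, 26 of 458, 17 of 418 and 23 of 469 cells. In microglia-like cells they lay in 6 of 157, 4 of 162, 7 of 330 and 23 of 159 cells, and in macrophage-like cells in 43 of 721, 45 of 697, 31 of 466 and 138 of 785 cells. In the last 2 classes shSELP library 2 spread the signal over the largest share of cells, 14.5% and 17.6%. In tumor-like cells the numbers were 25 of 258, 16 of 173, 4 of 45 and 5 of 39.

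**Figure D3:**
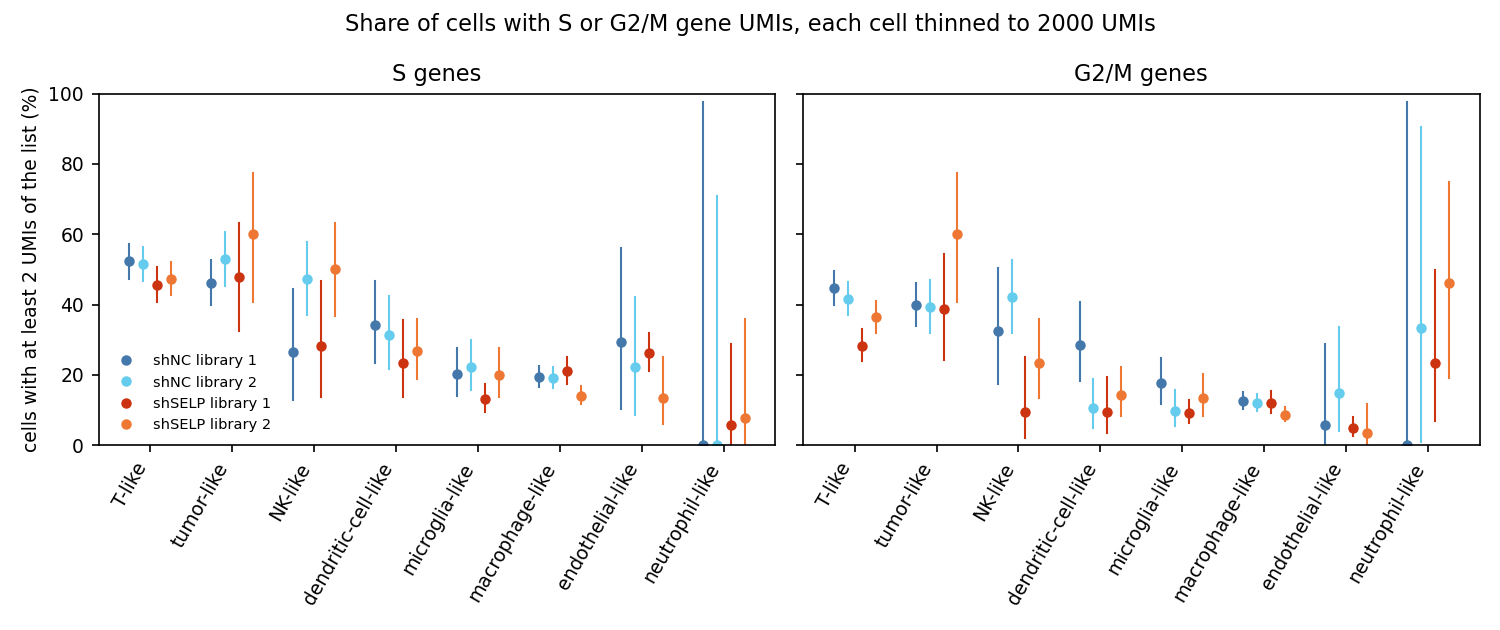
Share of cells with at least 2 UMIs of the S genes (left) or the G2/M genes (right) after thinning each cell to 2000 UMIs, 1 point per library with its exact 95% binomial interval, for 8 cell classes of the mix. T-like and tumor-like cells lie above macrophage-like cells for both lists, and neutrophil-like intervals are wide since 1 to 17 cells remained.

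Each class was compared with neutrophil-like cells of the same libraries to ask which members lie above the level there. Whether the reference holds dividing cells was not tested. Its leading 10 genes include Ngp, Camp and Ltf, genes of neutrophil precursors, and 2 of 13 thinned cells of shSELP library 2 kept at least 2 G2/M UMIs without Cks2. Its own 8 markers summed to 251650, 21039, 274857 and 72975 CPM, lowest in shNC library 2. With edgeR, Cdk1 in tumor-like cells (129, 100.2, 185 and 260.1 CPM) had an adjusted p of 0.0284, but neutrophil-like cells held 0 UMIs of it in all 4 libraries. The call therefore rests on an empty reference, and it ended without shSELP library 1 (adjusted p = 0.117) or 2 (0.118). Measured against a floor of 3 UMIs over all neutrophil-like cells, Cdk1 was at least 4.16-fold higher in tumor-like cells on the scaling of the test and 6.79-fold on plain CPM. In T-like cells Mcm6 (129, 113, 106 and 125 CPM) had an adjusted p of 0.0459 and Nasp (168, 154, 129 and 129 CPM) one of 0.0326. Neutrophil-like cells held 1 UMI of Mcm6, in shNC library 1, and 2 of Nasp, in shNC library 2, and 0 in every other library, so these calls rest on a nearly empty reference. Mcm6 lost its call without shNC library 2 (adjusted p = 0.125), shSELP library 1 (0.313) or shSELP library 2 (0.1197), and Nasp without shSELP library 1 (0.182) or 2 (0.191). The fitted log2 fold changes were 3.19 (Mcm6) and 2.56 (Nasp), or 9.11-fold and 5.89-fold, while plain CPM gives ratios of 18.7 (95% counting interval 3.35 to 738) and 11.3 (3.12 to 93.3).

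Cks2 was the member that fell below neutrophil-like cells in all 6 classes. Its log2 fold changes were -1.80 in tumor-like (adjusted p = 9.9e-07), -2.08 in T-like (7.78e-08), -3.11 in NK-like (2.38e-10), -3.47 in macrophage-like (1.08e-11), -3.62 in microglia-like (3.21e-12) and -3.77 in dendritic-cell-like cells (3.06e-12). Their size depends on the scaling, since plain pooled CPM gave -1.10 in both tumor-like and T-like cells, with -1.52 to -0.86 over the tumor-like libraries. TMM from all genes tested gave -1.34 in tumor-like, -1.02 in T-like and -2.68 in dendritic-cell-like cells. So 2 of 51 members were called in tumor-like cells where 22.7% of the 10789 genes tested were, and 3 in T-like cells where 17.3% were, and only the Cks2 call of each rests on a filled reference. In the other classes 1 member was called, where 13.1% (macrophage-like), 14.5% (microglia-like), 15.8% (NK-like) and 15.2% (dendritic-cell-like) of genes were. With TMM from all genes tested, 8 members were higher in tumor-like cells, where 16.5% of all genes were higher. In T-like cells 21 were, where 15.8% of all genes were. DESeq2 called 22 members higher in tumor-like cells, where 19.2% of all genes were higher, and 25 in T-like cells (9.81%). It called 5 in NK-like (7.49%), 2 in dendritic-cell-like (8.52%) and 1 each in macrophage-like (7.30%) and microglia-like cells (8.31%). These and the TMM counts rest on the same reference, where 8 S and 12 G2/M members held 0 UMIs. They therefore do not show how far members lie above it.

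The comparison is limited by its reference, in which 8 S and 12 G2/M members had 0 UMIs and 3 UMIs equal 19.2 CPM. Against that floor, on the scaling of the test, Mki67 was at least 4.69-fold higher in T-like, 1.88-fold in tumor-like, 1.89-fold in macrophage-like and 1.37-fold in microglia-like cells. Cdca8, a subunit of the chromosomal passenger complex, was at least 2.21-fold higher in T-like and 2.45-fold in tumor-like cells, and Cenpf, a kinetochore protein, at least 1.67-fold and 2.68-fold. Many other members at 0 UMIs had bounds under 1 on this scaling, which show no excess over the reference. In macrophage-like and microglia-like cells only Mki67 had a bound over 1, with Cdk1 at 0.446 and 0.810. Further examples were Rrm2 (0.909) and Nusap1 (0.788) in tumor-like and Chaf1b (0.625) in T-like cells. Plain CPM would raise these bounds 1.91 times in T-like and 1.63 times in tumor-like cells. Members called higher in tumor-like cells numbered 5 without shNC library 1, 2 without shNC library 2 and 0 without either shSELP library, among 1242, 610, 597 and 504 genes higher. In T-like cells they numbered 7, 1, 0 and 0 in the same order, among 574, 307, 236 and 200 genes, and in NK-like cells 2 and 1 without shNC libraries 1 and 2, among 467 and 248.

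Of 41 other cell cycle regulators, 39 were tested here, and 4 were higher and 5 lower in tumor-like cells than in neutrophil-like cells, 23.1% of them beside 22.7% of all genes. Ccnd1, the cyclin that pairs with Cdk4 in G1, was 472, 430.4, 537 and 421 CPM in tumor-like cells against 3 UMIs in neutrophil-like cells, a ratio of 23.9 on plain CPM (8.18 to 116) and a fitted 15.1-fold. Cdkn2a, the locus of the inhibitors p16 and p19Arf, was 216, 213, 261 and 231 CPM, at least 7.001-fold above the neutrophil-like floor on the scaling of the test. Cdk4 was higher by a fitted 2.96 on the log2 scale and by 3.65 on plain CPM. It rests on 0, 1, 1 and 2 neutrophil-like UMIs. The inhibitor Cdkn1a had log2 fold changes of -2.07 in tumor-like and -2.62 in T-like cells, but of its neutrophil-like UMIs (0, 11, 10 and 58) most came from shSELP library 2. Without that library they were -0.76 (adjusted p = 0.307) and -1.37 (0.0537). The securin gene Pttg1 was lower in all 6 classes, from -1.17 in tumor-like to -2.10 in dendritic-cell-like cells. The tumor-like call of Pttg1 ended without shNC library 2 (-1.16, adjusted p = 0.0544) or shSELP library 1 (-0.83, 0.236). Those of Cdkn1b (-1.37) and Cdkn2d (-1.75) also ended without shSELP library 1. Wee1, called higher over 0 neutrophil-like UMIs, lost its call without shNC library 2, shSELP library 1 or shSELP library 2. In macrophage-like cells 0 regulators were higher and 4 lower (8 at an unadjusted p under 0.05 by edgeR, and 2 higher by DESeq2), and in microglia-like cells 1 was higher and 5 lower. These are 10.3% and 15.4% of the regulators tested, beside 13.1% and 14.5% of all genes. Without shSELP library 1, Cdkn1b and Cdkn2d lost their calls in both classes. Their log2 fold changes were then -0.82 and -2.37 in macrophage-like and -1.52 and -2.23 in microglia-like cells. Ccnd2 lost its microglia-like call without shSELP library 2 (-1.63).

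Because the neutrophil-like reference is thin, endothelial-like, mural-like, oligodendrocyte-like, fibroblast-like and astrocyte-like cells were summed as another reference, chosen after seeing the data. That reference is not free of members. In shNC library 1 mural-like cells gave 2036 CPM of S genes and oligodendrocyte-like cells 942 CPM of G2/M genes. Of its 479 endothelial-like cells, 351 came from shSELP library 1. In T-like cells 49 of 51 members were then higher and 1 lower, where 64.9% of the 11874 genes tested were called in either direction. In tumor-like cells 44 were higher and 0 lower, where 56% of genes were called. Microglia-like cells had 21 higher and 4 lower (60.6% of all genes), macrophage-like cells 9 and 5 (68.3%), dendritic-cell-like cells 31 and 1 (61.9%) and NK-like cells 25 and 1 (49.2%). The median log2 fold changes of the S and G2/M genes were 2.05 and 3.07 in T-like and 1.72 and 2.71 in tumor-like cells, where those of all genes were -0.43 and -0.22. They were 0.24 and 1.24 in microglia-like and 0.05 and 0.47 in macrophage-like cells, beside -0.38 and -0.54 over all genes.

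Against this reference the S genes furthest up in T-like cells were Chaf1b (log2 fold change 3.79, adjusted p = 1.5e-08), a histone chaperone of the replication fork, Rrm2 (3.53) and Dtl (3.33). In tumor-like cells they were Uhrf1 (2.93), which reads hemimethylated DNA, Dtl (2.69) and Mcm5 (2.49). Among G2/M genes Mki67 (4.003), Kif11 (3.76) and Top2a (3.75) led in T-like cells, and Hmmr (4.23), Cdc20 (3.82) and Ttk (3.67) in tumor-like cells. Mki67 was also higher in macrophage-like cells (2.73, adjusted p = 2.17e-05) and in microglia-like cells (2.19). Anln was lower in T-like cells (-2.85) and further down in microglia-like (-3.38) and macrophage-like cells (-3.74), beside its level of 169.9 CPM in the oligodendrocyte-like part of the reference.

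The knockdown was compared with the control within each class, to ask whether members differ between shSELP and shNC tumors. In microglia-like cells 4 G2/M genes fell in shSELP libraries, out of 44 members tested, where 4.03% of the 8955 genes tested were called in either direction. Ube2c, the E2 enzyme of the anaphase-promoting complex, was 70.9, 39.0, 20.5 and 21.5 CPM and fell by 1.43 on the log2 scale (SE 0.29, adjusted p = 0.0315). Cenpa was 73.0, 37.4, 21.7 and 17.3 CPM and fell by 1.52 (SE 0.32, adjusted p = 0.0343). For each of these genes the higher shSELP value was under the lower shNC value. Birc5, the survivin subunit of the chromosomal passenger complex, was 50.7, 32.5, 19.3 and 17.3 CPM and fell by 1.21 (SE 0.26, adjusted p = 0.0367). Top2a, the topoisomerase that untangles sister chromatids, was 62.1, 48.7, 32.2 and 17.3 CPM and fell by 1.15 (SE 0.26, adjusted p = 0.0448). Cdca3, just outside the threshold and named after its values were seen, was 24.3, 17.5, 9.07 and 9.46 CPM.

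The other G2/M genes of microglia-like cells mostly lay the same way without passing the test. Counting the 4 called genes, in 19 of 21 tested both shSELP libraries were below both shNC libraries, which 21.5% of all genes tested were. Mki67 was 72.5, 48.3, 38.9 and 12.1 CPM (log2 fold change -1.19, adjusted p = 0.114) and Cdk1 was 36.8, 28.4, 17.8 and 22.6 CPM. Cks2 did not share the pattern, at 68.8, 54.4, 71.4 and 66.2 CPM. The median log2 fold change was -1.19 over the G2/M genes and -0.40 over 23 S genes, beside 0.01 over all genes. Among S genes Tyms was 21.2, 15.0, 8.78 and 9.46 CPM, while Slbp was 43.5, 39.0, 62.9 and 60.9 CPM and Pcna 39.3, 34.5, 45.6 and 45.2 CPM. Of 30 regulators tested, Ccnd2, a D-type cyclin, fell by 1.02 (39.9, 34.9, 20.5 and 17.3 CPM, adjusted p = 0.0304). Cdkn2b, the p15 inhibitor of Cdk4 and Cdk6, rose by 2.60 (0.518, 1.22, 6.44 and 5.25 CPM, adjusted p = 0.0446). DESeq2 called 0 regulators here, with 3 at an unadjusted p under 0.05, and edgeR had 6.

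DESeq2 called 4 members lower as well, and with the replicate number as a block edgeR called 16, among 1046 genes called in all against 361 without the block. Leaving out shNC library 1, shNC library 2, shSELP library 1 or shSELP library 2 gave 0, 9, 8 and 3 members, among 216, 378, 319 and 545 genes. The G2/M median stayed between -1.44 and -0.84, and it was -0.84 without shNC library 1. After thinning, 2 members were called among 98 genes, and the shares of cells with at least 2 G2/M UMIs overlapped (17.6%, 9.72%, 9.24% and 13.6%). Few cells carry these sums. Before thinning, 50% of the G2/M UMIs lay in 6 of 157 and 4 of 162 shNC cells. With shSELP they lay in 7 of 330 and 23 of 159 cells. Tumor markers, detected as 9, 7, 7 and 8 of 10, summed to 78.2, 55.6, 38.6 and 53.6 CPM, led by Prph in shNC library 1 and Igf2bp3 in the others, with Mest, Sox11, Gap43 or Sox2 at 0 in some libraries. They were lower in both shSELP libraries, while 10 macrophage markers overlapped between groups, at 6348, 3118, 3192 and 2175 CPM, most from Lyz2, with F13a1 at 0 in shNC library 1. The next 3 lists were higher in both shSELP libraries. The 9 microglia markers, all detected, summed to 4171, 5349, 7950 and 6382 CPM. Neutrophil markers, 4, 4, 8 and 5 of 8 detected and led by Csf3r, summed to 45.5, 52.4, 103.6 and 83.5 CPM, with Retnlg, Cxcr2 and Mmp9 at 0 in all but shSELP library 1. T cell markers, 7, 7, 8 and 6 of 8 detected, summed to 10.4, 11.4, 19.9 and 25.7 CPM. These marker sums, apart from the macrophage list, thus differ between groups along with the G2/M genes, and their part was not tested.

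In macrophage-like cells members of both lists lay lower in shSELP libraries. Mcm5 was 20.6, 16.2, 8.59 and 6.94 CPM and Tyms was 18.1, 18.8, 8.59 and 9.13 CPM, with log2 fold changes of -1.23 and -0.99. Rrm2 was 7.13, 10.1, 2.80 and 4.37 CPM. Every shSELP value was under every shNC value for 20 of 25 S genes and 18 of 24 G2/M genes, against 29.3% of all genes tested. Yet other members did not separate the groups, among them Mki67 (59.8, 60.3, 62.5 and 53.1 CPM), Pcna (44.2, 34.6, 41.9 and 39.6 CPM), Slbp (54.7, 62.5, 62.7 and 50.6 CPM) and Nasp (46.3, 46.8, 67.1 and 39.6 CPM). The median log2 fold change was -0.97 over the S genes and -0.68 over the G2/M genes, beside 0.00 over all genes. The S median was -0.65 without shNC library 1, and the G2/M median was -0.94 without shSELP library 1 and -0.34 without shSELP library 2. After thinning these medians were -0.24 and -0.42, and the thinned shares of cells given above overlap between groups for both lists. The MCM subunits alone had a median of -1.004.

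None of these passed the test. With edgeR 0 of 49 members were called in macrophage-like cells, where 0.0571% of 10507 genes were, with 30 members at an unadjusted p under 0.05 and a smallest adjusted p of 0.0774 for Tyms. DESeq2 called 2 members lower. Without the filter edgeR called members lower too, and more of them than in the settings that follow (given with the processing). With the replicate number as a block 6 members were called lower among 78 genes, without shNC library 2 also 6 among 92, and without shSELP library 1 also 6 among 75. Of 37 regulators edgeR called 0, with 6 at an unadjusted p under 0.05, and DESeq2 called 0. Tumor markers in macrophage-like cells summed to 36.9, 32.9, 20.8 and 23.9 CPM, led by H19 in shNC library 1 and Prph in the others, with Sox11 and Mest at 0 in shNC library 2. All 10 were found in the other 3 libraries. The class's own 10 markers, led by Lyz2, were higher with shSELP, at 12524, 15022, 16804 and 19854 CPM. Microglia markers, with Sall1 at 0 in shNC library 2, were lower, at 852, 841, 789 and 689.7 CPM. These 3 lists separated the groups, and their part was not tested.

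In tumor-like cells, which carry the shRNA, the leading members lay the other way. Cdk1 was 129, 100.2, 185 and 260.1 CPM (log2 fold change 0.87, adjusted p = 0.246) and Rrm2 was 20.03, 30.1, 55.3 and 55.1 CPM (1.09, adjusted p = 0.246). Birc5 was 101, 111, 154 and 194 CPM and Top2a was 143, 89.5, 176 and 189.6 CPM. For these 4 genes both shSELP libraries lay above both shNC libraries. Ube2c (177, 118, 162 and 357 CPM), Cdc20 (131, 127, 87.3 and 201 CPM) and Cenpf (92.6, 73.2, 68.4 and 101 CPM) overlapped between groups and were highest in shSELP library 2. Pcna was 40.8, 51.5, 59.7 and 59.5 CPM, and Dtl, a ubiquitin ligase adaptor for licensing factors, was lower in both shSELP libraries at 45.9, 38.7, 29.1 and 22.0 CPM.

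Both shSELP libraries lay above both shNC libraries for 11 of 26 S genes and 4 of 25 G2/M genes, against 25.9% of all genes tested. Median log2 fold changes were 0.13 and 0.10, beside -0.03 over all genes. With edgeR 0 of 51 members were called, where 0.0923% of 9749 genes were, with 8 members at an unadjusted p under 0.05 and 0 called by DESeq2. Leaving out shNC library 1 or shNC library 2 gave 2 members called higher, among 84 and 370 genes, and the G2/M median was 0.54 without shSELP library 1 and -0.32 without shSELP library 2. With the replicate number as a block 0 members were called. The 10 tumor markers summed to 3012, 2257, 1795 and 2182 CPM, all detected, led by H19 in the shNC libraries and Prph in the others. Macrophage markers, 8, 10, 5 and 4 of 10 detected and mostly Fn1, summed to 544, 587, 601 and 655 CPM, with F13a1 and Chil3 among those at 0 outside shNC library 2. Both lists separated the groups, and their part was not tested. The shSELP sums rest on 45 and 39 cells, and of 39 regulators edgeR and DESeq2 called 0, with 4 at an unadjusted p under 0.05 by edgeR.

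In T-like cells most members lay lower in shSELP libraries. Cenpa was 386, 266, 179 and 239.9 CPM, Ube2c was 210.5, 180.3, 107 and 169 CPM and Mcm5 was 91.0, 73.2, 48.3 and 65.2 CPM. Slbp, at 174, 163, 171 and 171 CPM, and Pcna, at 92.7, 76.3, 68.0 and 95.7 CPM, did not separate the groups. For 17 of 26 S genes and 16 of 25 G2/M genes both shSELP libraries were below both shNC libraries, against 20.6% of all genes tested, and shSELP library 1 was mostly the lowest. The median log2 fold changes were -0.43 and -0.45, beside 0.01 over all genes. With edgeR 0 of 51 members were called, where 0.0402% of 9938 genes were, with 27 at an unadjusted p under 0.05 and 0 called by DESeq2. Without shNC library 2 edgeR called 18 among 319 genes and without shSELP library 2 it called 12 among 207, and with the replicate number as a block it called 0. Of 40 regulators edgeR and DESeq2 called 0, with 6 at an unadjusted p under 0.05 by edgeR. Macrophage markers in T-like cells summed to 563, 1232, 672 and 1056 CPM, led by Ly6c2, with F13a1 at 0 in shNC library 1 and Chil3 at 0 in shSELP library 1, and overlapped between groups. Tumor markers, all 10 detected except Gap43 in shSELP library 2, were lower with shSELP, at 45.05, 46.95, 37.5 and 35.8 CPM, and the 8 T cell markers were higher, at 6383, 6402, 7371 and 6871 CPM. Both separated the groups, and their part was not tested.

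The smaller classes gave fewer members to test. In dendritic-cell-like cells all 13 G2/M genes tested had a negative log2 fold change, as 2896 of all 5775 genes had. Their median was -1.19, and shNC library 1 set them apart. Only in 1 of the 13 were both shSELP libraries below both shNC libraries, against 17.5% of all genes tested. Birc5 was 164 CPM in that library and 29.03, 15.4 and 28.2 CPM in the other 3, and Mki67 was 138 against 24.7, 61.7 and 51.2 CPM. With edgeR 0 of 30 members were called where 0% of 5775 genes were, with 4 at an unadjusted p under 0.05 and 0 called by DESeq2. Without shNC library 2 edgeR called 21 members lower among 319 genes and without shSELP library 2 it called 6 among 27. In NK-like cells Top2a was 87.4, 164, 7.67 and 42.9 CPM, and edgeR called 0 of 13 members where 0% of 3510 genes were called, with 1 at an unadjusted p under 0.05 and 0 by DESeq2. There 5 members were called lower without shNC library 1 among 33 genes, 2 without shSELP library 1 among 24, 1 without shSELP library 2 among 11 and 1 with the replicate number as a block among 10. In neutrophil-like cells Cks2 was the 1 member tested, and edgeR and DESeq2 called 0 members, with 0 at an unadjusted p under 0.05, where 0% of 552 genes were called.

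**Figure D4:**
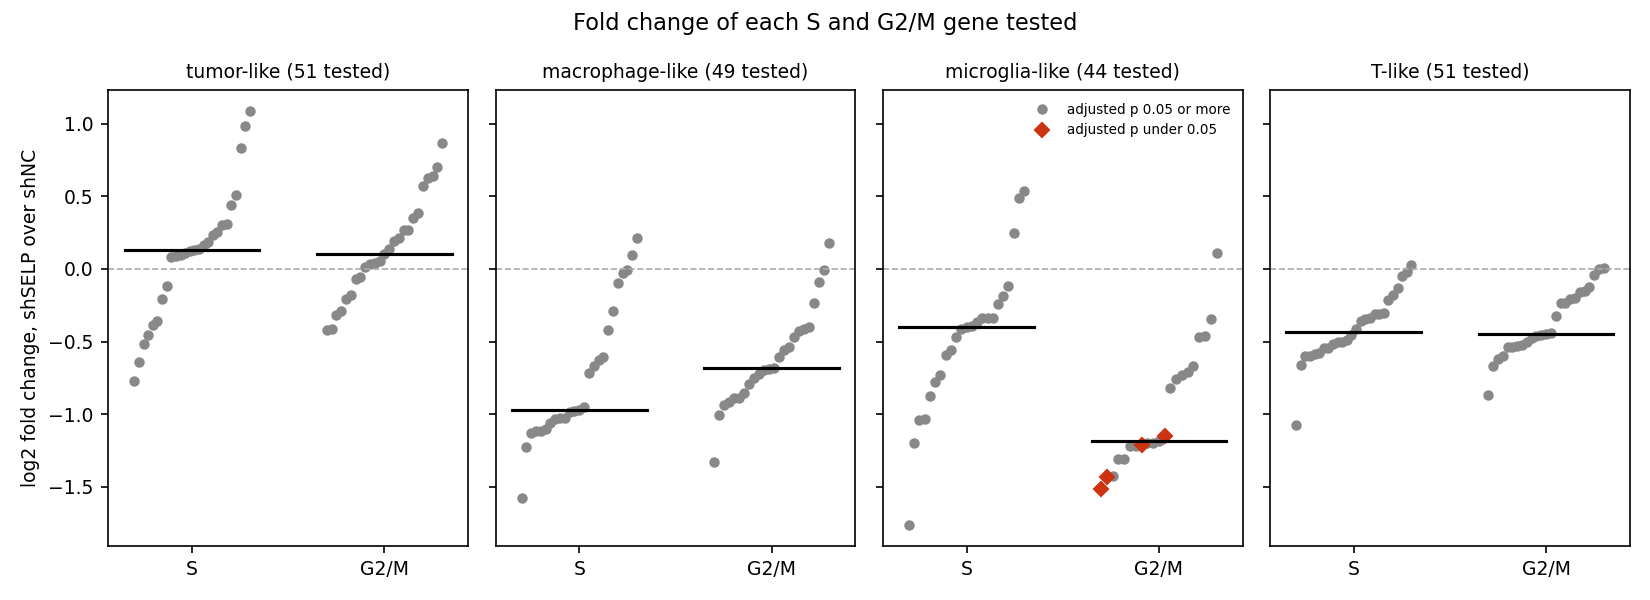
Log2 fold change, shSELP over shNC, of each S and G2/M gene tested in 4 cell classes of the mix (edgeR), with the median of each list as a bar and genes with an adjusted p under 0.05 as red diamonds. The 4 diamonds are Cenpa, Ube2c, Birc5 and Top2a in microglia-like cells, and most members lie below 0 in the 3 classes other than tumor-like cells.

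Whether classes differed in their response was tested as the class by group interaction, with macrophage-like cells as the common partner. Members lay higher in the tumor-like than in the macrophage-like response, with median differences of 0.81 (S) and 0.73 (G2/M) on the log2 scale beside -0.04 over all genes. Mcm7 differed by 1.47 (adjusted p = 0.0503) and Cdk1 by 1.64 (adjusted p = 0.0677). With edgeR 0 members were called, where 0.0927% of genes were, with 20 at an unadjusted p under 0.05, and DESeq2 called 0. Leaving out shNC library 1 or shSELP library 1 gave 1 member called. In the microglia-like response the difference from the macrophage-like response was called for 0 members by edgeR, the 4 genes that fell included, where 0.324% of genes were called, with 3 at an unadjusted p under 0.05 and 0 by DESeq2. The T-like response gave 0 members, where 0.0185% of genes were called, with 2 at an unadjusted p under 0.05 and 0 by DESeq2.

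In the CD11b+ libraries, 1 per genotype, the G2/M genes of microglia-like cells were higher with shSELP, at 984 CPM against 555 CPM (ratio 1.77, exact 95% interval 1.65 to 1.91 for counting error only). Top2a was 127 against 47.9 CPM, Mki67 163 against 80.1 CPM and Cenpf 56.5 against 15.2 CPM. The other genes called lower in the mix differed less. Ube2c was 65.5 against 43.4 CPM (ratio 1.51, 1.14 to 2.01) and Birc5 60.7 against 47.4 CPM (1.28, 0.965 to 1.70). Cenpa was level, at 45.7 against 45.2 CPM (1.01, 0.741 to 1.38). Of 24 G2/M genes with at least 10 UMIs, 22 were higher with shSELP (91.7%), beside 56.7% of 9577 genes. At least 2 G2/M UMIs remained after thinning in 18.996% of shSELP and 10.9% of shNC cells. The S genes gave 659 against 567 CPM (1.16, 1.07 to 1.26). In ungated CD11b+ cells the G2/M genes lay the other way, at 494 CPM with shSELP against 635 CPM (0.778, 0.729 to 0.831). Over all cells of each library they were level, at 480 against 487 CPM. These directions hold only if the shSELP label is right, since 7 entries of that library are described as the negative control. With the labels turned, the microglia-like G2/M ratio would be 0.564 (0.523 to 0.607) and 22 of 24 genes would be lower with shSELP. The ungated ratio would be 1.29.

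In CD11b+ macrophage-like cells the lists parted. The S genes were 447 CPM with shSELP and 389.9 CPM with shNC (1.15, 1.09 to 1.21), and the G2/M genes were 337 and 379.8 CPM (0.888, 0.838 to 0.942). Mki67 was higher with shSELP, at 93.0 against 59.6 CPM, while Ube2c (11.7 against 25.9 CPM), Birc5 (12.6 against 22.6 CPM) and Cdk1 (8.11 against 13.8 CPM) were lower. Of the genes with at least 10 UMIs, 18 of 25 S genes and 6 of 24 G2/M genes were higher, beside 59.4% of 10960 genes. With 1 library per genotype there is no replicate to test these differences against, and the sorting, and by the labels the day, differ from the mix. With the labels turned, the ratios would be 0.873 (S) and 1.13 (G2/M).

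Across the 28 sums of 7 classes in 4 libraries, the S sum and the G2/M sum had a Pearson r of 0.747. Among 8186 other genes of at least 20 CPM in 1 class, those most like the G2/M sum were Uqcr10 (r = 0.804), Tmem167 (0.801), Ncapg (0.785), Lsm5 (0.783), Rwdd1 (0.781) and Fbxo5 (0.778). The first 20 also held Cbx3, Crmp1, Hist1h2ae, Esco2, Ptpn13, Dazap1, Igsf9b, Zdhhc2, Oaz1, Cenpm, 1500009L16Rik, Cit, Angptl2 and Nhp2, and 0 of the 41 regulators. The G2/M members themselves had a median r of 0.632 with this sum, from 0.335 for Mki67 to 0.824 for Ttk. In the neutrophil-like points 76% of the G2/M UMIs are Cks2. A high r therefore does not mark a gene as part of the cell cycle. The 28 points share libraries and depth within classes, so these values are a description.

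The members lie on 16 chromosomes, so what they share was looked for in their promoters, windows of 300 bases around the gene start from RefSeq (build GRCm38.p6). These were found for 21 of 26 S genes and 23 of 25 G2/M genes, without Mcm4, Gins2, Rfc2, Exo1, Tipin, Tpx2 and Aurkb. The CHR letters TTTGAA stood on either strand in 16 of 23 G2/M promoters (69.6%) and 4 of 21 S promoters (19.05%), beside 18.1% of all 27025 promoters. The CCAAT letters stood in 73.9% and 71.4%, beside 37.9%. Both stood in 60.9% of G2/M promoters, beside 7.12%. E2F letters (TTTCCCGC, TTTCGCGC, TTTGCCGC or TTTGGCGC, either strand) stood in 8 of 21 S promoters (38.1%) and 1 of 23 G2/M promoters (4.35%), beside 2.32%. Within the last 100 bases, a window chosen after seeing the data, CHR letters stood in 65.2% of G2/M promoters beside 4.92% of all.

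The promoters of the 4 genes that fell in microglia-like cells and of Cks2, which did not, show both kinds of window. Capitals mark TTTGAA and CCAAT on either strand. Top2a, Ube2c and Cenpa hold both, Cks2 holds 4 CCAAT matches and no CHR match, and Birc5 holds neither set of letters. They lie at chr11:99024140-99024439 on the minus strand (Top2a), and on the plus strand at chr2:164769679-164769978 (Ube2c), chr5:30666636-30666935 (Cenpa), chr11:117848987-117849286 (Birc5) and chr13:51644982-51645281 (Cks2).
Top2a: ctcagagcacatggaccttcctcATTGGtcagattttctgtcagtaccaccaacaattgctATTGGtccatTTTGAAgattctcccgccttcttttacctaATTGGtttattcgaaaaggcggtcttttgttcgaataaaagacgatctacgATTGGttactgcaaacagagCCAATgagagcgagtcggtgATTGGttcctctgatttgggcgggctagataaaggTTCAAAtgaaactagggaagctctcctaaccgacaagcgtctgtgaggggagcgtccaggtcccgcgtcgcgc
Ube2c: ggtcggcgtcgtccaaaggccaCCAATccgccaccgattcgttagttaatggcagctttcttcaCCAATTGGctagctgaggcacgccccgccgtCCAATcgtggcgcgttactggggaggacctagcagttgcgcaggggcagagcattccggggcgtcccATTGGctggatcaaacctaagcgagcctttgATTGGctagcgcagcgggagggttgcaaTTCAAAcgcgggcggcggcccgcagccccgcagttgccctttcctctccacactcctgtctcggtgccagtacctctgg
Cenpa: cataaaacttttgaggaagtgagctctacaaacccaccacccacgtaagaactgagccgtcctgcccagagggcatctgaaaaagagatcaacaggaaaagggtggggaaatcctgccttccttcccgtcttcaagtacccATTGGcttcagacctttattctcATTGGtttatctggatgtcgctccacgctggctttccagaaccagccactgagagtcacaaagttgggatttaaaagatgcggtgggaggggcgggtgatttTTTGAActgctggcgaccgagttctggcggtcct
Birc5: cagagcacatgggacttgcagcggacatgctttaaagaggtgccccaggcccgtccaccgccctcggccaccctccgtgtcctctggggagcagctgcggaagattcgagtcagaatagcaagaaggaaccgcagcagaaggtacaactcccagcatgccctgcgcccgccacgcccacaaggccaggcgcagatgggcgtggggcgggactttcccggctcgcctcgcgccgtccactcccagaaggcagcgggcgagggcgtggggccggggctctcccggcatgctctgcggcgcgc
Cks2: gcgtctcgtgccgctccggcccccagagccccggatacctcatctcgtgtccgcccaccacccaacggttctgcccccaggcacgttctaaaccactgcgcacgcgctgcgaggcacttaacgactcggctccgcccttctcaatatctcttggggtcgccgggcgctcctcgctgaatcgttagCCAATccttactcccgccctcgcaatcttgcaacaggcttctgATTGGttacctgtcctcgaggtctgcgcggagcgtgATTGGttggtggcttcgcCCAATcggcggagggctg

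For the S genes the promoters of Mcm5, low in shSELP macrophage-like cells, and of Mcm6, called in T-like cells against 1 neutrophil-like UMI, are shown with E2F letters of either strand in capitals. Mcm5 holds 2 matches, which overlap, and Mcm6 holds 3. They lie at chr8:75109259-75109558 on the plus strand (Mcm5) and chr1:128359656-128359955 on the minus strand (Mcm6). The letters describe the windows and say nothing of a bound factor.
Mcm5: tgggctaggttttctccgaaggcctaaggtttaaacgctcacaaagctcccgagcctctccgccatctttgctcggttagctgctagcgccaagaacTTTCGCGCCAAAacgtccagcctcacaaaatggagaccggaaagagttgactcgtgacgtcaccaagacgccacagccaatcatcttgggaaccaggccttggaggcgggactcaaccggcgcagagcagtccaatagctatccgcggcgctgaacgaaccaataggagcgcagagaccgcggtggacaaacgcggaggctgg
Mcm6: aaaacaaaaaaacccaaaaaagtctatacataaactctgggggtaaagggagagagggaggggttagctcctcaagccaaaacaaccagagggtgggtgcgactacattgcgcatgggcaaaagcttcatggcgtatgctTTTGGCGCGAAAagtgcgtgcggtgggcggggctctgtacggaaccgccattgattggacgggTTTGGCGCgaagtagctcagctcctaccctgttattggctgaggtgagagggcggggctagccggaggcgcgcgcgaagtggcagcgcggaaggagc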

How the data were processed

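The deposited tables hold counts of UMIs per gene and cell, made by the authors with Cell Ranger 1.3 on mm10 from Chromium 3′ libraries of 8 sequencing entries each. Cells with under 500 genes or over 10% mitochondrial UMIs were left out. Each cell was given the class of which it detected the largest share of markers, with at least 3 markers and a lead of at least 0.1 over the share of the next class, and other cells stayed ungated. Members and lists were chosen with earlier results of these data known, and the grouping of members by role was made after their values were seen.

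UMIs were summed per class and library. Groups, classes and class by group interactions were compared with edgeR 4.0.16 (quasi-likelihood, filterByExpr, library as a block between classes) at an adjusted p of 0.05, and again with DESeq2 1.42.0, in R 4.3.3. TMM factors came from genes with at least 5 UMIs expected in the shallowest sum, a change made after the procedure was tested on simulated data. Leaving out 1 library leaves a lone sample in its group, which is assumed to vary like the others. Cells were thinned at random to 2000 UMIs, and intervals are exact at 95%. Python 3.11.15 was used with scipy 1.17.1.

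Scrublet in scanpy 1.11.5 scored doublets, which stayed in, and an alternative left out the top 5% of scores. Other alternatives were no filter, a replicate block, thinning, cells of at least 3000 UMIs, a stricter gate of 4 markers and leaving out each library. Chosen after seeing the data were crossed pairs, a looser gate, TMM from all genes tested and a stromal and glial reference.

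Genes named were the members called (up to 6 by size of change). For classes against neutrophil-like cells they were the first 3 S and 3 G2/M members called with at least 20 CPM. The most abundant member per class and part of the regulators called were named too. A further 14 genes were named whatever their values: Mcm5, Pcna, Tyms, Rrm2, Slbp, Nasp, Mki67, Top2a, Cdk1, Birc5, Ube2c, Cks2, Cenpf and Cdc20. Other genes were named after their values were seen.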

Additional observations from a re-analysis of the deposited data

Results flagged for a closer look

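The S gene sum moved in opposite directions between classes of the mix. In tumor-like cells it was 1105 and 1132 CPM with shNC and 1312 and 1265 CPM with shSELP. It was lower in every shSELP library of macrophage-like cells (509 and 458 CPM against 393 and 337 CPM), microglia-like cells (505 and 432 CPM against 411 and 399.8 CPM) and T-like cells (2009.6 and 1639 CPM against 1306 and 1565 CPM). These differences between the sums were not tested.

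Some sums of the CD11b+ libraries lay the other way from the mix. Their S sum was 389.9 CPM with shNC and 447 CPM with shSELP in macrophage-like cells, and 567 and 659 CPM in microglia-like cells. The G2/M sum of microglia-like cells was 666 and 474 CPM with shNC and 353 and 257 CPM with shSELP in the mix, but 555 CPM with shNC and 984 CPM with shSELP in the CD11b+ libraries. The macrophage-like G2/M sum was lower with shSELP in both, at 379.8 against 337 CPM in the CD11b+ libraries. The differences were not tested, and they cannot be told apart from sorting, library, the labelled day or a turned label. Of the shSELP library, 7 entries are described as the negative control, and with the labels turned its microglia-like G2/M ratio of shSELP to shNC would be 0.564 in place of 1.77.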

How the results depend on the processing

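Of 4401 values recomputed under the alternatives, 3529 were labelled the same and 18 reversed. For named genes the same meant an unchanged side of the threshold, with no change of direction beyond the SE. Counts of genes and members were labelled the same when within a set fold of the main count, so they need not be equal. Medians, sums and differences between shares were labelled by the spread between replicates, and shares and CD11b+ ratios by their intervals. Of 3135 log2 fold changes of named genes, 203 newly passed the threshold, 112 no longer passed and 92 moved. Of 430 counts of members called, 345 were labelled the same, 72 larger and 13 smaller. Of 215 counts of genes called, 121 were labelled the same, 61 larger and 33 smaller. Of 336 shares of cells 205 moved, and of 84 differences between shares 32 moved. Where values changed, the cause was not tested.

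DESeq2 called 19 genes in the tumor-like group comparison, 73 in macrophage-like, 205 in microglia-like, 11 in T-like and 1 in NK-like cells, with 2 members lower in macrophage-like cells. Against neutrophil-like cells it called 22 members higher in tumor-like, 1 in macrophage-like, 1 in microglia-like, 25 in T-like, 5 in NK-like and 2 in dendritic-cell-like cells, and 3 lower in macrophage-like cells and 2 in microglia-like cells.

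Without the filter the genes called were 275 (tumor-like), 471 (macrophage-like), 1102 (microglia-like), 280 (T-like), 34 (NK-like), 57 (dendritic-cell-like) and 4 (neutrophil-like). Members were 2 higher in tumor-like and 21, 17, 12, 3 and 8 lower in macrophage-like, microglia-like, T-like, NK-like and dendritic-cell-like cells. Against neutrophil-like cells 10 (tumor-like), 1 (macrophage-like), 13 (T-like), 1 (NK-like) and 1 (dendritic-cell-like) were higher, with 8 higher in the tumor-like and 1 lower in the microglia-like response relative to macrophage-like cells.

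With the replicate block the count for shSELP against shNC, microglia-like: genes called, was 1046, and 43 genes were called in tumor-like, 78 in macrophage-like, 0 in T-like, 10 in NK-like and 2 in neutrophil-like cells, and 6, 16 and 1 members were lower in macrophage-like, microglia-like and NK-like cells. Crossed pairs gave 92 genes and 3 members in macrophage-like cells. Without a library term 2 members were higher in tumor-like than neutrophil-like cells.

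Thinning gave macrophage-like medians of -0.24 (S) and -0.42 (G2/M), 98 genes, 2 members and an S median of -0.24 in microglia-like cells, 2 genes in T-like cells, and 0 members higher in T-like than neutrophil-like cells. Cells of at least 3000 UMIs gave 2 genes in NK-like cells, 0 members higher in tumor-like or T-like than neutrophil-like cells, 2 higher in the tumor-like response and a CD11b+ macrophage-like S ratio of 1.22. TMM scaling moved the CD11b+ macrophage-like ratios to 1.07 (S) and 0.829 (G2/M).

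The stricter gate gave 17 genes in macrophage-like and 1 in NK-like cells, and 0 members higher in tumor-like or T-like than neutrophil-like cells. The looser gate, chosen after seeing the data, gave 1 gene in NK-like cells, 9, 8 and 3 members higher in tumor-like, T-like and NK-like than neutrophil-like cells and 1 higher in the tumor-like response. Leaving out the top 5% of doublet scores gave a tumor-like S median of 0.036, 52 genes, 6 members and a G2/M median of -1.04 in macrophage-like cells, 630 genes and 8 members in microglia-like cells, 2, 1 and 1 members higher in tumor-like, NK-like and dendritic-cell-like than neutrophil-like cells and 4 higher in the tumor-like response.

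TMM from all genes tested, chosen after seeing the data, gave 8, 1, 21, 5 and 3 members higher in tumor-like, macrophage-like, T-like, NK-like and dendritic-cell-like than neutrophil-like cells and 1 higher in the tumor-like response. The stromal and glial reference, also chosen after seeing the data, gave 44, 9, 21, 49, 25 and 31 higher in tumor-like, macrophage-like, microglia-like, T-like, NK-like and dendritic-cell-like cells, and 0, 5 and 4 lower in the first 3. It reversed Cks2 to 2.46 in tumor-like, 1.08 in macrophage-like, 0.96 in microglia-like, 2.49 in T-like, 1.61 in NK-like and 0.76 in dendritic-cell-like cells. E2f2 became 0.74, 1.70 and 1.53 in tumor-like, NK-like and dendritic-cell-like cells, Mcm5 1.74 and 1.48 in the last 2, Slbp 0.40 in dendritic-cell-like, Nasp -0.56 in microglia-like, Pttg1 0.10 in tumor-like and Ccnd3 0.059 in T-like cells. E2f2 held 0, 0, 3 and 0 UMIs in neutrophil-like cells. Leaving out shSELP library 1 therefore empties the reference and fixes the sign in advance. E2f2 against neutrophil-like cells was then 4.92 in tumor-like, 5.65 in NK-like and 5.29 in dendritic-cell-like cells, the highest values. No change of direction can be read from these values over 0 UMIs. The lowest were -5.06, -4.64 and -4.13 without shSELP library 2, over the same 3 UMIs.

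Leaving out each library in turn gave 12 to 370 genes in tumor-like, 0 to 92 in macrophage-like, 216 to 545 in microglia-like, 57 to 319 in T-like, 11 to 33 in NK-like, 1 to 319 in dendritic-cell-like and 0 to 3 in neutrophil-like cells. Members were 0 to 2 higher in tumor-like and 0 to 6, 0 to 9, 0 to 18, 0 to 5 and 0 to 21 lower in macrophage-like, microglia-like, T-like, NK-like and dendritic-cell-like cells. G2/M medians ranged from -0.32 to 0.54 in tumor-like, -0.94 to -0.34 in macrophage-like and -1.44 to -0.84 in microglia-like cells, and S medians from -0.93 to -0.65 and -0.57 to -0.28 in the last 2. Against neutrophil-like cells 0 to 5, 0 to 7 and 0 to 2 members were higher in tumor-like, T-like and NK-like cells, and 0 to 1 in the tumor-like response.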

Other observations

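Classes outside the comparisons also held S gene UMIs. B-like cells summed to 494, 1020.0, 2196 and 2033 CPM, plasma-cell-like cells to 949, 1199, 71.2 and 117 CPM and mural-like cells to 2036, 815, 501 and 307 CPM. They held few cells, B-like 26, 34, 11 and 12, plasma-cell-like 17, 11, 4 and 3 (3 and 8 S gene UMIs in the shSELP libraries) and mural-like 5, 10, 80 and 28. Ungated cells gave 871, 762, 525 and 932 CPM for the G2/M genes. These values were not tested.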
